A study of Homo sapiens with 8 samples.

Results

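Expression of 8 genes of cholesterol synthesis and its control was examined in HCT116 colorectal cancer cells: HMGCS1, IDI1, FDFT1, SQLE, LSS, DHCR7, SREBF2 and INSIG1. The genes were taken by name, as every non-control probe carrying one of these names on the array. They were chosen with earlier results of these data known. This gave 9 probes, 2 of them for LSS, among 50599 distinct probes and 36337 gene names. Every one of the 9 was detected above background on each of the 8 arrays, none was saturated, and all passed the filter for testing together with 27287 probes in all. No receptor for lipoproteins is among the 8 genes, so cholesterol uptake was followed only through a separate list of genes.

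RNA was measured on 8 one-color arrays. HCT116 is a line of colorectal cancer cells, here as 4 stable transfectants selected with G418. CONT1 and CONT2 carried the pcDNA6.2-GW/EmGFP-miR-neg plasmid, which expresses a negative control miRNA, and TET1-KD1 and TET1-KD2 carried plasmids for artificial miRNAs against TET1, a different one in each clone. TET1 encodes an enzyme that oxidizes 5-methylcytosine in DNA. Each clone was measured untreated and after 1 µM 5-aza-dC (5-aza-2'-deoxycytidine, an inhibitor of DNA methyltransferases) for 72 h, which gave 4 conditions with n = 2 clones each. Every line is a single clone, so the spread within a condition is the spread between the clones of that kind, and differences between clones and effects of the miRNA cannot be told apart. Array titles gave the conditions, whereas a separate treatment label follows the kind of clone and was not used.

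Cholesterol is built from acetyl-CoA through mevalonate, isoprenoids, squalene and lanosterol. Transcription of these enzymes is driven by SREBP transcription factors, which are held in the endoplasmic reticulum by SCAP and INSIG proteins when sterols are plentiful and are cut and released to the nucleus when sterols run low. INSIG1 is itself a target of SREBP, so that its product closes a feedback loop, and the enzymes of the pathway commonly move together when sterol levels change.

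Promoter windows are shown for the genes found in the promoter table because 5-aza-dC acts on DNA methylation, the CpG content of a promoter bears on it, and SREBP, NF-Y (which binds the CCAAT box) and Sp1 (which binds the GC box) are textbook regulators of the pathway. RefSeq promoters (GRCh38.p14) were matched for 6 of the 8 genes, in 10 windows of 300 bases, 250 before the start and 50 after it. INSIG1 had 48 CpG in its window, SREBF2 31 and LSS 32. HMGCS1 had 27 and 28 in its windows, IDI1 had 36, 39 and 40, and DHCR7 had 12 and 36. The median over all 35116 windows was 14 and the upper quartile 28. On either strand, the letters TCACNCCAC, used here for the sterol regulatory element, were found in 1.13% of all windows, the E-box CACGTG in 7.26%, the CCAAT box in 34.61% and the GC box GGGCGG in 44.95%. In IDI1 a CCAAT on each strand overlapped in the same stretch. The windows below run 5′ to 3′ on the gene's strand, and capitals mark the motif, with ATTGG being CCAAT read on the other strand.
SREBF2, sterol regulatory element, chr22:41832962-41832990, + strand: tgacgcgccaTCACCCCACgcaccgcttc
SREBF2, CCAAT box, chr22:41832989-41833013, + strand: tcgctcgcccATTGGctgagatgag
INSIG1, E-box, chr7:155297813-155297838, + strand: cgggcaggctCACGTGatgcgggccc
INSIG1, CCAAT box, chr7:155297698-155297722, + strand: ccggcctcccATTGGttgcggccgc
LSS, CCAAT box, chr21:46228910-46228934, - strand: cggcgctctgATTGGttgcgtgggc
DHCR7, CCAAT box, chr11:71448427-71448451, - strand: tccgcctccgATTGGcaggcaatcg
HMGCS1, CCAAT box, chr5:43313498-43313522, - strand: accggccgcgATTGGctgtgggagc
IDI1, CCAAT box, chr10:1048959-1048983, - strand: ggcgcgagcgATTGGctgcgcggcc
The CCAAT box was present in at least 1 window of all 6 matched genes, and the sterol regulatory element in that of SREBF2 alone. These matches are letters in a fixed window and say nothing of binding.

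Before the results, some facts of the arrays bear on them. The treated control arrays were alone on the second of 2 scan dates, 230 days after the first. So in control clones the treatment and the scan date cannot be told apart. The slide of each array was not read. Before scaling, the largest difference of a spike-in transcript on the second scan date was -1.004 (log2), at medium brightness. That of the brightest was -0.038. TET1 signal from its brightest probe was 9.70 and 9.75 in the untreated control clones, 8.65 in TET1-KD1 and 9.41 in TET1-KD2 (log2). All 3 TET1 probes were lower in both untreated knockdown clones than in both controls, without passing the test (limma adjusted p = 0.37 to 0.61). The probe with the adjusted p of 0.37 was above background on only 2 of the 8 arrays. It read 2.19 and 2.85 in untreated TET1-KD1 and TET1-KD2. Of the 6 colorectal epithelial markers, 5 were tested. KRT19 stood between 17.36 and 17.76 on every array and CDX2 passed in no comparison, while in control clones EPCAM fell by 0.89, KRT8 fell by 0.75 and KRT18 rose by 0.61 with 5-aza-dC, and KRT8 was higher by 0.95 in treated knockdown than in treated control clones. These values are of the brightest probe of each gene. In control clones a dimmer KRT18 probe had means of 14.54 untreated and 14.51 treated. Dimmer KRT8 probes went from 10.48 to 10.13 and from 9.81 to 10.11. VIL1 was not well above background in any untreated clone. Of the 3 fibroblast markers, LUM and COL3A1 were not above background on any array, and COL1A1 was above it on all 8 and rose in control clones by 0.99. Of the 2 endothelial markers, PECAM1 rose in control clones by 3.49 and CDH5 fell by 2.10. The PECAM1 probe had an untreated control mean of 2.22 and was above background on 3 of the 8 arrays. A dimmer tested PTPRC probe went down with 5-aza-dC, from a mean of 5.12 to 4.38 in control clones and from 4.91 to 4.06 in knockdown clones. By their brightest probes, all 3 leukocyte markers (PTPRC, CD3D and CD68) rose in control clones with 5-aza-dC. Of the 3, CD3D alone passed the test in knockdown clones too, with rises of 3.48 in control and 2.84 in knockdown clones. CD68 was at 1.36 in control clones and 1.23 in knockdown clones (limma adjusted p = 0.0627 in the latter). PTPRC was at 1.56 in control and 0.08 in knockdown clones. The log2 of the summed signal of the 3 leukocyte markers was 8.69 to 9.69 in untreated and 10.32 to 10.90 in treated arrays. That of the 6 epithelial markers was 18.31 to 18.59. The part of these markers in the results below was not tested.

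Signals are given as log2 of the scaled intensity, and differences as log2 of the ratio, so that 1 is a doubling. HMGCS1, the cytosolic synthase that makes the precursor of mevalonate, is read by a probe at chr5:43290117-43290176 on the - strand (hg19). Its signal was 10.07 in CONT1 and 10.54 in CONT2 when untreated, and 10.57 and 10.99 after 5-aza-dC. TET1-KD1 read 10.39 untreated and 11.04 treated, and TET1-KD2 10.00 and 11.09. Every clone was higher after treatment. The control ranges did not overlap, but the lower treated control exceeded the higher untreated control by little, and the knockdown ranges were well apart. The difference was 0.47 ± 0.25 (SE) in control clones (limma adjusted p = 0.169) and 0.87 ± 0.25 in knockdown clones (adjusted p = 0.0764). With the clone as a block, the knockdown value passed the test (adjusted p = 0.0416). The control value was 0.15 when signals were mapped so that spike-ins read alike on both scan dates (the spike-in scale). It was 0.07 when each array's trend on probe GC content was removed (GC correction).

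IDI1, which isomerizes isopentenyl diphosphate, is read at chr10:1086619-1086678 on the - strand. Untreated signals were 11.10 and 11.57 in CONT1 and CONT2, and 12.05 and 12.43 after 5-aza-dC. The treated control clones both stood above the untreated ones. TET1-KD1 read 11.70 and then 12.41, and TET1-KD2 11.37 and then 11.80, again higher in each clone. IDI1 rose in control clones by 0.90 ± 0.29, or 1.87-fold, with a limma adjusted p of 0.0482, and the difference in knockdown clones was 0.57 ± 0.29 (adjusted p = 0.266). The control call was thin. Leaving out any single array other than the treated TET1-KD1 or TET1-KD2 array gave an adjusted p above 0.05, from 0.06 to 0.221. On the spike-in scale the control difference was 0.39 (adjusted p = 0.282), and after correction for probe GC content it was 0.45 (adjusted p = 0.235).

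**Figure D1:**
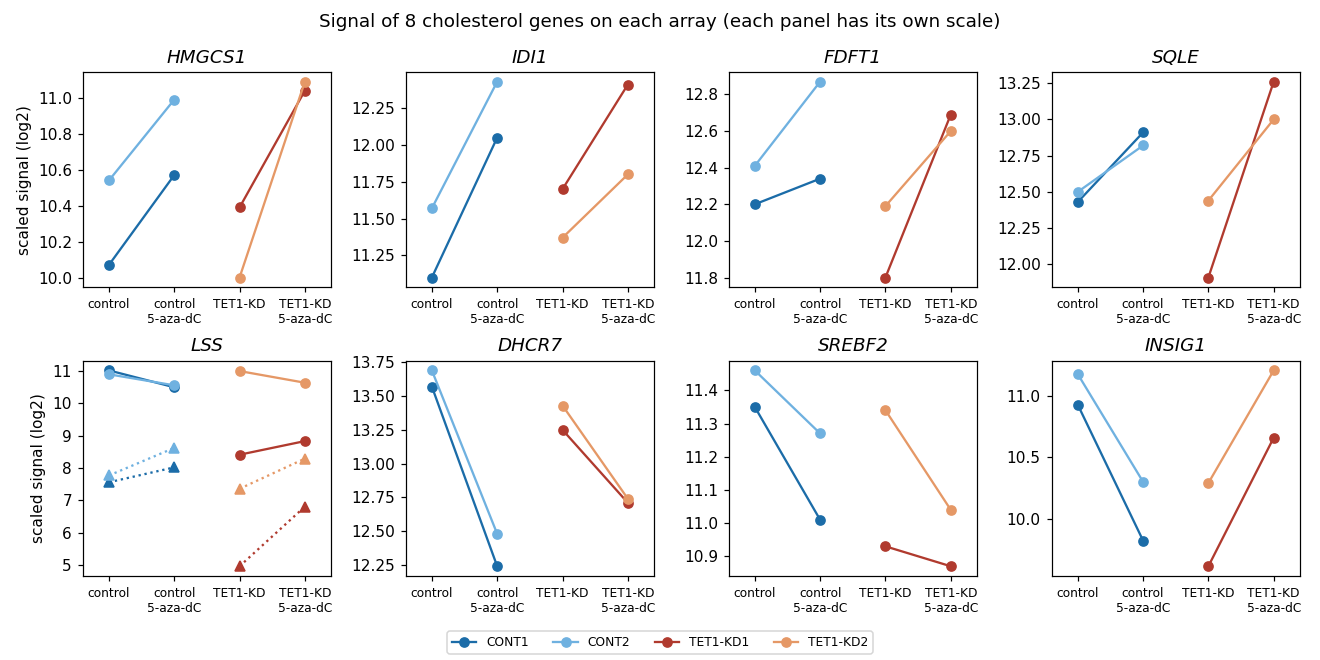
Scaled signal (log2, vertical axes, each panel with its own scale) of the 8 genes in the 4 conditions, with points joined for the same clone and triangles with dotted lines for the second LSS probe. DHCR7 was lower after 5-aza-dC in all 4 clones, INSIG1 moved down in both control clones and up in both knockdown clones, and LSS was low in TET1-KD1 on both probes.

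FDFT1 joins farnesyl diphosphate into squalene, the first step committed to sterols, and its probe lies at chr8:11696201-11696260 on the + strand. The untreated control signals were 12.20 and 12.41, and the treated ones 12.34 and 12.87. TET1-KD1 went from 11.80 to 12.69 and TET1-KD2 from 12.19 to 12.60. The control ranges overlapped and the knockdown ranges did not. Differences were 0.30 ± 0.24 in control clones (adjusted p = 0.341) and 0.65 ± 0.24 in knockdown clones (adjusted p = 0.136).

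SQLE oxidizes squalene and is a rate-limiting enzyme of the sterol branch, and its probe lies at chr8:126034443-126034502 on the + strand. In CONT1 and CONT2 the signal was 12.43 and 12.50 untreated, and 12.91 and 12.82 treated. In TET1-KD1 it was 11.91 untreated and 13.26 treated, the largest rise of the 8 genes in any clone. In TET1-KD2 it was 12.44 and 13.00. SQLE rose in knockdown clones by 0.95 ± 0.22, or 1.93-fold (limma adjusted p = 0.0397), while the control difference was 0.40 ± 0.22 (adjusted p = 0.183). The difference between those responses was 0.55 ± 0.31 (adjusted p = 0.318). The knockdown call was lost with the clone as a block (adjusted p = 0.0689) and on leaving out any array except the untreated TET1-KD2 array (adjusted p = 0.0734 to 0.121).

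For FDFT1 and SQLE the sign in control clones turned with the scale. On the spike-in scale the differences were -0.26 and -0.18, and after GC correction -0.07 and -0.06, none past the test. In knockdown clones both genes kept a positive difference under every alternative run, 0.38 to 0.85 for FDFT1 and 0.68 to 1.22 for SQLE.

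LSS closes squalene epoxide into lanosterol. Its brighter probe lies at chr21:47609299-47609358 and its dimmer one at chr21:47608567-47608626, both on the - strand. The brighter probe read 11.01, 10.89 and 10.99 in untreated CONT1, CONT2 and TET1-KD2, and 8.41 in TET1-KD1. After 5-aza-dC it read 10.49, 10.55 and 10.63 in those clones and 8.83 in TET1-KD1. The dimmer probe read 7.56, 7.77 and 7.36 untreated against 4.97 in TET1-KD1, and 8.02, 8.62 and 8.29 treated against 6.81. So TET1-KD1 was the lowest clone on both probes and under both treatments, and TET1-KD2 stood close to the controls. The test of the kind of clone, which averages over both knockdown clones, gave -1.25 ± 0.90 untreated (adjusted p = 0.684), and without the untreated TET1-KD1 array the value was 0.04. The probes disagreed on the response in control clones, with -0.43 ± 0.90 for the brighter and 0.66 ± 0.83 for the dimmer, neither past the test. In knockdown clones the brighter gave 0.03 ± 0.90 (limma adjusted p = 0.988) and the dimmer 1.39 ± 0.83 (adjusted p = 0.334).

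DHCR7 reduces 7-dehydrocholesterol in the last step of synthesis and is read at chr11:71145514-71145573 on the - strand. Untreated CONT1 and CONT2 read 13.57 and 13.69, and treated ones 12.24 and 12.48. TET1-KD1 read 13.25 and then 12.71, and TET1-KD2 read 13.43 and then 12.74. All 4 treated values lay below all 4 untreated ones. DHCR7 fell in control clones by 1.27 ± 0.16, or 2.41-fold (limma adjusted p = 0.0019). In knockdown clones the difference was -0.62 ± 0.16 (adjusted p = 0.0577). It passed with the clone as a block (adjusted p = 0.05, just under the threshold) and with normexp background correction (-0.65, adjusted p = 0.0314). It also passed after GC correction, alone (-0.87, adjusted p = 0.0197) or with the block (-0.87, adjusted p = 0.0224). The other alternatives left it uncalled. The control call kept its side of the threshold under every alternative but the methods' t-test on 4 arrays (adjusted p = 0.0556), with values from -1.80 to -1.15. The control response exceeded the knockdown response by 0.65 ± 0.23 in size, which did not pass (adjusted p = 0.147; on the spike-in scale 1.20, adjusted p = 0.0297).

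SREBF2 encodes the SREBP protein that mainly drives cholesterol synthesis, and its probe lies at chr22:42302199-42302258 on the + strand. Untreated signals were 11.35, 11.46, 10.93 and 11.34 in CONT1, CONT2, TET1-KD1 and TET1-KD2, and treated ones 11.01, 11.27, 10.87 and 11.04. The treated value was the lower one in each clone, by 0.06 to 0.34. Neither the control difference of -0.27 ± 0.20 (adjusted p = 0.316) nor the knockdown difference of -0.18 ± 0.20 (adjusted p = 0.606) passed the test. The control value became 0.11 after GC correction (adjusted p = 0.657) and -0.67 on the spike-in scale (adjusted p = 0.0325).

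INSIG1, which retains SREBP in the endoplasmic reticulum, was the gene of the 8 whose response had opposite signs in all control and all knockdown clones. Its probe lies at chr7:155101843-155101902 on the + strand. CONT1 read 10.93 untreated and 9.82 treated, and CONT2 read 11.18 and 10.30. TET1-KD1 read 9.61 and then 10.66, and TET1-KD2 read 10.29 and then 11.21. Untreated, both knockdown clones lay below both controls; after 5-aza-dC, both lay above them. INSIG1 fell in control clones by 0.99 ± 0.32, or 1.99-fold (limma adjusted p = 0.0466). In knockdown clones the difference was 0.99 ± 0.32, which did not pass (adjusted p = 0.103) unless the clone was a block (adjusted p = 0.0219). The responses differed by 1.98 ± 0.45 (unadjusted p = 0.00402, adjusted p = 0.06), and with the clone as a block the adjusted p was 0.036. Over all alternatives the difference ranged from 1.65 to 2.32 and its adjusted p from 0.036 to 0.185. The control call was lost when any one of the 4 control arrays was left out (adjusted p = 0.0663 to 0.194). The comparison includes the treated control arrays, so scan date and treatment cannot be told apart in it. The knockdown response does not include them.

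**Figure D2:**
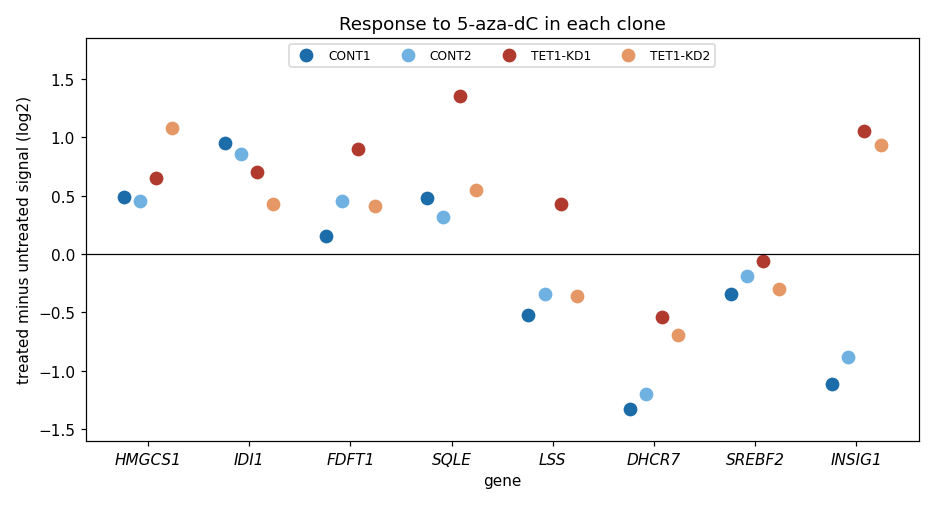
Treated minus untreated signal (log2, vertical axis) of the 8 genes in each of the 4 clones, 1 point a clone, with a line at 0. HMGCS1, IDI1, FDFT1 and SQLE lie above 0 in 4 of 4 clones, DHCR7 and SREBF2 below 0 in 4 of 4, and INSIG1 lies from -1.11 to -0.88 in control clones and from 0.93 to 1.05 in knockdown clones.

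Counted over the 8 genes, 1 passed the test as higher and 2 as lower after 5-aza-dC in control clones, where 41.8% of all tested probes were called (19.2% higher and 22.6% lower). In knockdown clones 1 gene was higher and 0 lower, against 11.8% of all probes (8.91% higher and 2.9% lower). The 3 of 8 and 1 of 8 called are near these shares. The median of the 8 differences was 0.02 in control clones and 0.61 in knockdown clones, beside -0.08 and -0.07 over all tested probes. In control clones 3 genes had both treated arrays above both untreated arrays and 4 had both below, where 36.2% and 42.8% of all tested probes did. In knockdown clones 5 were above and 1 below, against 24.2% and 30.8%.

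Between kinds of clone, 0 of the 8 genes passed the test when untreated, where only 0.0147% of all probes, 4 in number, were called by limma (0.00733% higher and 0.00733% lower) and 2253 had an unadjusted p below 0.05; the methods' t-test also called 0 of the 8. The differences were negative for 7 of the 8 genes, with INSIG1 at -1.11 ± 0.32 (unadjusted p = 0.0122, adjusted p = 0.511) and IDI1 alone positive at 0.20 ± 0.29. After 5-aza-dC, the kind of clone and the scan date cannot be told apart in this comparison. There 0 of the 8 passed, against 18.8% of all probes (11.9% higher and 6.91% lower). Of all tested probes 9748 had an unadjusted p below 0.05, and INSIG1 stood at 0.88 ± 0.32 (limma adjusted p = 0.104). On the spike-in scale SQLE (0.78) and DHCR7 (0.82) were called higher in treated knockdown clones. The difference in response was positive for 7 of the 8 genes with a median of 0.43, beside 0.05 for all tested probes, and 0 of the 8 passed, against 5.58% of all probes (4.02% higher and 1.56% lower, 6742 with an unadjusted p below 0.05). These comparisons share arrays with each other.

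**Figure D3:**
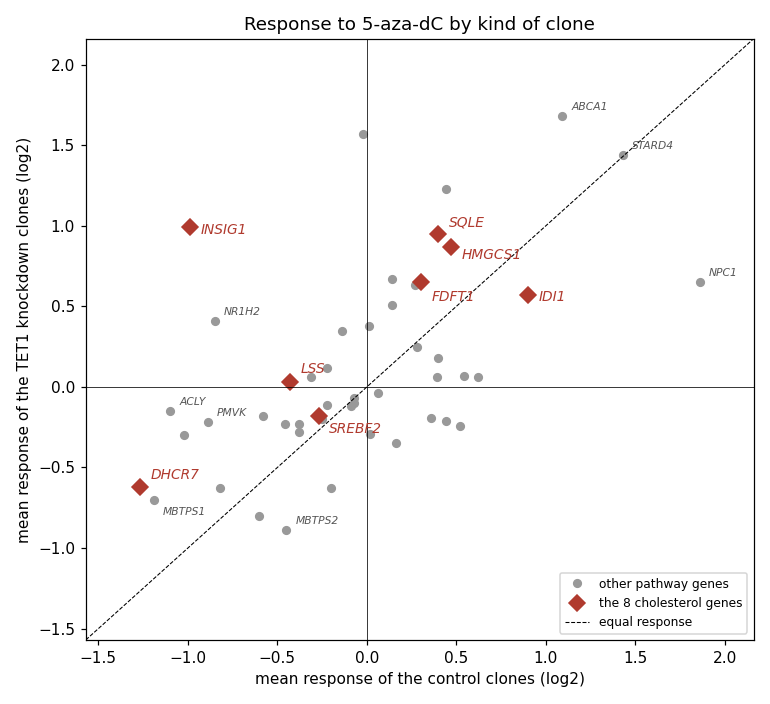
Mean response to 5-aza-dC of the control clones (horizontal axis) against that of the knockdown clones (vertical axis), both log2, for the 8 genes (diamonds) and 41 other genes of cholesterol and fatty acid metabolism (circles), with a dashed line at equal response. INSIG1 lies at -0.99 and 0.99 in the upper left quadrant, while STARD4 lies on the dashed line at 1.43 and 1.44.

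Around these 8 genes, 6 lists of pathway genes held 41 tested genes of 42 on the array. After 5-aza-dC, 10 of the 41 were called in control clones, 3 higher and 7 lower, and 4 in knockdown clones, 2 higher and 2 lower. These are 24.4% and 9.76% of the list genes, beside 41.8% and 11.8% of all tested probes. Of the other 6 genes of the mevalonate and isoprenoid steps, 2 fell in control clones, GGPS1 by 1.02 and the phosphomevalonate kinase PMVK by 0.89, and 0 rose. GGPS1 lost its call without any one of the 4 control arrays (adjusted p up to 0.0984) and PMVK without the untreated CONT2 array (adjusted p = 0.0545). Of 8 genes from lanosterol to cholesterol, 1 fell in control clones, EBP, an isomerase of sterols, by 0.58, and 0 rose. EBP lost its call after GC correction (-0.41, adjusted p = 0.0964) and without any one of the 4 control arrays (adjusted p up to 0.13), and was at -1.2 on the spike-in scale. With the clone as a block, CYP51A1 of the same list was called higher. In both lists 0 genes were called in knockdown clones. Of 5 genes of the SREBP machinery, 2 fell in control clones. The protease gene MBTPS1 fell by 1.19, and SCAP, which escorts SREBP, by 0.82. In knockdown clones MBTPS1 was at -0.70 (limma adjusted p = 0.0591) and SCAP at -0.63 (adjusted p = 0.0808). Neither difference in response passed (adjusted p = 0.286 and 0.702). After GC correction both were called lower in knockdown clones, at -0.95 (adjusted p = 0.019) and -0.85 (adjusted p = 0.0167). On the spike-in scale MBTPS1 was called there too (-0.71, adjusted p = 0.0497). The protease gene MBTPS2 fell in knockdown clones by 0.89 (adjusted p = 0.0132). In control clones SCAP lost its call after GC correction (-0.44, adjusted p = 0.0669) and without any one of the 4 control arrays. MBTPS2 lost its knockdown call without the untreated TET1-KD1 or the treated TET1-KD2 array. Its control difference was -0.45 (limma adjusted p = 0.0514). With the clone as a block it was called lower in control clones too (-0.45, adjusted p = 0.0421). So it was after GC correction (-0.55, adjusted p = 0.0286) and on the spike-in scale (-0.55, adjusted p = 0.025).

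Some genes of cholesterol handling rose in both kinds of clone. Of 7 tested genes of uptake and transport, STARD4, a carrier of sterols in the cytosol, rose in control clones by 1.43 (limma adjusted p = 0.00791) and in knockdown clones by 1.44 (adjusted p = 0.0207). Its signal was 8.70, 8.59, 8.12 and 8.41 in untreated CONT1, CONT2, TET1-KD1 and TET1-KD2, and 9.96, 10.19, 9.34 and 10.07 after treatment, with every treated value above every untreated one. The knockdown call was lost without either untreated knockdown array or the treated TET1-KD2 array (adjusted p up to 0.0885). NPC1, which exports cholesterol from lysosomes, rose in control clones by 1.86 (adjusted p = 0.00105), and its difference in knockdown clones was 0.65. TMEM97 had a difference of -0.63 in knockdown clones (adjusted p = 0.0484). That call was lost with the clone as a block (adjusted p = 0.0587) and on the first scan date alone (adjusted p = 0.0823). It was also lost on leaving out any 1 of the 8 arrays (-0.70 to -0.55). In control clones TMEM97 was at -0.20 (limma adjusted p = 0.315). There it was called lower after GC correction (-0.61, adjusted p = 0.021) and on the spike-in scale (-0.67, adjusted p = 0.0112). Of 6 genes of storage and efflux, the cholesterol exporter ABCA1 rose in control clones by 1.09 (adjusted p = 0.00919) and in knockdown clones by 1.68 (adjusted p = 0.0045). ABCA1 in control clones was at 0.63 with GC correction (adjusted p = 0.0615), and lost its call without the untreated CONT2 array (adjusted p = 0.0616). With the clone as a block, ABCG1 was called higher in knockdown clones and in the difference of responses. NR1H2, a receptor for oxysterols, fell in control clones by 0.85 (adjusted p = 0.0105), a call lost after GC correction (-0.47, adjusted p = 0.11) and without the untreated CONT2 or the treated CONT1 array (adjusted p up to 0.0702). Of 9 fatty acid genes under SREBP, ACLY, which makes cytosolic acetyl-CoA, fell in control clones by 1.10 (adjusted p = 0.00268) and 0 were called in knockdown clones. With the clone as a block, FADS2 was called higher in control clones (0.52, adjusted p = 0.0435).

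When untreated, 0 of the 41 genes were called between kinds of clone by limma. After 5-aza-dC 6 were called, or 14.6% of the list genes, beside 18.8% of all tested probes. In the difference of responses these shares were 2.44% and 5.58%. The kind of clone and the scan date cannot be told apart after 5-aza-dC. There PMVK (0.84), NR1H2 (1.18) and ACLY (0.77) were higher in knockdown clones, and NPC1, ACACA and FADS2 were lower, with differences of -1.02, -1 and -0.91. After GC correction PMVK (0.46, adjusted p = 0.142), NR1H2 (0.74, adjusted p = 0.0566), ACACA (-0.84, adjusted p = 0.0727) and FADS2 (-0.67, adjusted p = 0.0635) were not called, and on the spike-in scale NPC1 (-0.62, adjusted p = 0.0717) and ACACA (-0.45, adjusted p = 0.216) were not. ACLY kept its call under both, but lost it on leaving out any array other than the untreated knockdown ones (adjusted p up to 0.0778). With 1 array left out in turn, NR1H2 kept its call 8 of 8 times, NPC1 6, PMVK 5, ACACA 3 and FADS2 3. In the difference of responses 1 of the 41 was called, NR1H2, and it was not called on leaving out any 1 of the 8 arrays (adjusted p = 0.0561 to 0.154).

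The 8 genes did not move as a block across the arrays. Of their 28 pairs, 18 had a positive Pearson correlation over the 8 arrays, with a median of 0.238 and a range of -0.819 to 0.85. Each gene against the mean of the other 7 ranged from -0.287 for DHCR7 to 0.70 for FDFT1, with 0.679 for INSIG1. Outside the 8 genes and the lists, the profiles most like their mean, by Pearson correlation over 8 arrays, were PLTP (0.975), SLC2A8 (0.95), C6orf168 (0.946), CLIC4 (0.946) and GGT3P (0.943). PLTP, a plasma carrier of phospholipids, was lowest in untreated TET1-KD1 at 6.39 and highest in treated TET1-KD2 at 8.04. The arrays share clones, treatments and scan dates, so these values are descriptions and carry no p.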

How the data were processed

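The authors deposited the spot intensity values of each array as written by Agilent Feature Extraction 10.7.3.1 (hg19 probe annotation), with background subtracted and poor spots flagged. A deposited value table holds the same intensity within rounding (ratio 0.995 to 1.005). GeneSpring GX was the authors' software, with t-tests under Benjamini-Hochberg correction; their normalization is not given in the sources used here.

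Processed intensity was scaled to each array's 75th percentile (395.5 to 623.7) and put on the log2 scale; deposited intensities were not log2 values. Flagged spots (229 to 329 an array) were left out, saturated ones kept, and spots of a probe averaged, which left 50543 probes. A probe was tested if above background on both arrays of a condition (27287 probes; 20938 on all 8). One limma 3.58.1 fit (R 4.3.3) over 8 arrays gave 5 contrasts with Benjamini-Hochberg adjustment over all tested probes, called below 0.05. A gene was read by its brightest tested probe. All 8 members were tested in every comparison, though not every value is printed. Of each list up to 3 called genes with the largest change were named. The genes most alike were ranked by correlation. Members and lists were chosen with earlier results of these data known, and 1 gene of the lists is not reported here. Each number marks a clone, so arrays are paired; the deviations of the paired arrays correlated at 0.198 (control) and 0.476 (knockdown), and the block is given where it changes a call. In simulated control responses over 27287 probes, 100 probes were raised by 1 and 100 lowered by 2. Of these, 15% and 54% were recovered, with 5 false calls. In the real control comparison 41.8% of probes were called. The cut-off on the unadjusted p was looser there, so the recovered shares do not give the power of the tests above. The number of arrays limits the precision. Promoters were searched in Python 3.11.15, with figures in matplotlib 3.10.9.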

Additional observations from a re-analysis of the deposited data

Results flagged for a closer look

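Flagging covered the genes, among the 8 and the 41 of the lists, that were called in at least 1 comparison of the main fit. Such a gene was flagged where both control clones moved one way and both knockdown clones the other. Genes called in none were left out, though CYP51A1, LBR, MVK, MVD and HSD17B7 among them moved in opposite ways too. The share of all tested probes with this pattern was not counted. INSIG1 moved in this way. The responses were -1.11 and -0.88 in CONT1 and CONT2, and 1.05 and 0.93 in TET1-KD1 and TET1-KD2, a difference of 1.98 ± 0.45 (limma adjusted p = 0.06).

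NR1H2 did so too, with -0.94 and -0.76 in the control clones and 0.28 and 0.54 in the knockdown clones. The difference of 1.26 ± 0.24 passed the test (limma adjusted p = 0.041), and did not with the clone as a block (adjusted p = 0.0516) or with GC correction (0.66, adjusted p = 0.245), nor on leaving out any 1 array (adjusted p = 0.0561 to 0.154).

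FADS2, a fatty acid desaturase, moved by 0.38 and 0.67 in the control clones and by -0.15 and -0.34 in the knockdown clones. The difference of -0.77 ± 0.25 did not pass (adjusted p = 0.133). All 3 differences include the treated control arrays of the second scan date, so scan date and treatment cannot be told apart in them.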

How the results depend on the processing

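Main counts of the 8 genes were 1 higher and 2 lower in control clones, 1 higher and 0 lower in knockdown clones, and 0 elsewhere. In control clones the methods' t-test gave 0 and 0, and no filter 0 and 1. Quantile normalization and scaling to the median of probes above background (chosen after seeing the data) gave 1 lower. GC correction and the spike-in scale gave 0 higher. The spike-in scale also gave 3 lower, with SREBF2 (-0.67, limma adjusted p = 0.0325) added. In knockdown clones normexp gave 2 higher and 1 lower, as did the replicate block of clones (2 and 1). No filter, only 4 arrays, the methods' t-test, the first scan date alone and GC correction gave 0 higher. GC correction, alone or with the block, gave 1 lower. The interaction gave 1 higher with normexp, with probes above background on all 8 arrays, with the block and with GC correction and block, and 2 on the spike-in scale, which also gave 2 higher after 5-aza-dC between kinds of clone. Leaving out 1 array gave 0 to 1 higher and 1 to 2 lower in control clones and 0 to 1 higher in knockdown clones. Of the calls of the 8 genes, those the block changed are given here or in the report, and it changed no other.

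None of the values that changed sign passed the test on either side. With GC correction, alone and with the replicate block, FDFT1 (-0.07), SQLE (-0.06) and SREBF2 (0.11) changed sign in control clones, LSS (-0.22) in knockdown clones and SREBF2 (-0.52) in the interaction; alone, IDI1 after treatment (0.06) did too. On the spike-in scale FDFT1 (-0.26) and SQLE (-0.18) did in control clones, IDI1 (0.30) and SREBF2 (0.12) between treated clones, and IDI1 (0.16) in the interaction. The mean of probes gave LSS 0.11 in control clones. Leaving out 1 array moved LSS from -1.26 to 1.33 and SREBF2 from -0.38 to 0.02 in knockdown clones. Between untreated clones it moved HMGCS1 from -0.34 to 0.13, IDI1 from -0.04 to 0.43 and LSS from -2.55 to 0.04. Between treated clones it moved IDI1 from -0.44 to 0.17, LSS from -1.69 to 0.11 and FDFT1 from -0.22 to 0.30, and in the interaction LSS from -0.83 to 1.76 and SREBF2 from -0.12 to 0.29. Of all tested probes, 5234 higher and 6168 lower in control clones became 2152 and 2011 by the methods' t-test; 2430 and 790 in knockdown clones became 1614 and 73 with only 4 arrays, and 0 and 0 by the methods' t-test; GC correction gave 3734 lower there. Interaction calls of 1097 higher and 425 lower became 433 higher with normexp, 2176 higher on the spike-in scale and 142 and 114 with GC correction and block, and on leaving out 1 array 33 to 1037 and 14 to 240, fewest without the untreated CONT1 array. Leaving out 1 array gave 3113 to 5379 higher and 3165 to 6148 lower in control clones, and 1619 to 2331 and 145 to 776 in knockdown clones. The cause was not tested.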
